A study of Rattus norvegicus with 20 samples.

Results

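The 7 genes described here encode the kainate receptor subunits (Grik1 to Grik5) and the Neto auxiliary proteins (Neto1 and Neto2). They were collected by name from all gene probes of the array, and each was measured by 1 probe on 1 spot. All 7 passed the filter on dim probes, among 13550 named genes that did. The family was chosen by the ratio of Neto2 at day 21, which stood out in an earlier look at these data, so values at day 21, and differences that contain them, are given as a description without a test, whereas ratios at day 7 were tested.

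Kainate receptors are glutamate-gated cation channels. GluK1, GluK2 and GluK3, the products of Grik1, Grik2 and Grik3, can form channels on their own, whereas GluK4 and GluK5, the high-affinity subunits encoded by Grik4 and Grik5, reach function only in assemblies with them. Neto1 and Neto2 are single-pass membrane proteins with extracellular CUB domains that bind these channels and change their gating, and Neto2 also binds the neuronal potassium-chloride cotransporter KCC2. In the cortex such receptors act on both sides of the synapse, where they slow synaptic currents and tune transmitter release.

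The study measured cortical neurons of rats aged 2 years after a stroke, with 5 animals at day 21 and 5 other animals at day 7. A cholera toxin B tracer was placed in the cortex next to the infarct, and a tracer of another colour was placed at the same spot after a survival period of 21 days or 7 days, which names the groups. A further 7 days later, about 300 neurons labelled as sprouting and about 300 labelled as non-sprouting were taken from each animal by laser capture, and their RNA went through 2 rounds of T7 amplification. The labels name no strain or sex, and every animal had a stroke, so there is no group without one. An animal's pools shared a forward array, with the sprouting pool in Cy5, and then a dye-swap array with the dyes exchanged. Each animal counted once, as the mean log2 ratio of its 2 arrays, and a negative ratio means a lower signal in sprouting neurons. In such pools, fewer cells of a type and less RNA per cell cannot be told apart.

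The results turned on the Neto genes. The array names the Neto2 probe, A_44_P1008867, for a predicted gene of that symbol. It lists the Neto1 probe, A_44_P529934, as the predicted gene RGD1566269, which RefSeq gives as a synonym of Neto1. Their promoters are shown because the ratios of these 2 genes were the lowest of the family at day 21. Each runs from 250 bases before to 50 bases after the annotated start in RefSeq's GRCr8 assembly, 5′ to 3′ on the gene's strand, with the GC box GGGCGG in capitals on either strand. The Neto2 window is chr19:37517305-37517604 (plus strand) and the Neto1 window is chr18:81910203-81910502 (plus strand).
Neto2: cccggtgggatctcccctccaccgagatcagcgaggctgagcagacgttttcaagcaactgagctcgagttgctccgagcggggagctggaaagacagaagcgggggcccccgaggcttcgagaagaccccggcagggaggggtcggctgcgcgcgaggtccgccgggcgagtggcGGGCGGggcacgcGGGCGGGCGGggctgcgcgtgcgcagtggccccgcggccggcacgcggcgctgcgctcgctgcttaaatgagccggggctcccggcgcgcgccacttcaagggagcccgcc
Neto1: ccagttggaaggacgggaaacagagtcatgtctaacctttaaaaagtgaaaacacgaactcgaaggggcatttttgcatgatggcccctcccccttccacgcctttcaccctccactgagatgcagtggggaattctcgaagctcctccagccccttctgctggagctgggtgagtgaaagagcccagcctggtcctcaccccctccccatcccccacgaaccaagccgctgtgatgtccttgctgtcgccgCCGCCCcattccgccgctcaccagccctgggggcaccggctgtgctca
The Neto2 window was 74.0% G and C and held 3 GC boxes, 2 of which overlap, and the Neto1 window was 60.0% G and C and held 1. Across 33469 rat promoters of this length the median was 51.7%, 33.1% held at least 1 GC box and 8.97% held as many as Neto2. Among the receptor subunits, Grik3 held 6 GC boxes, Grik5 held 2, and none was found for Grik1, Grik2 and Grik4. None of the 7 windows held the letters TATAAA, which 14.2% of promoters hold, or TGACGTCA, which 1.83% hold. These matches describe letters in the windows and no binding was measured.

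Array quality varied. The share of gene spots detected well above background ranged from 69.8% to 95.5% for Cy5 and from 20.8% to 95.2% for Cy3. Day 21 replicate 4 had the lowest share, on its dye-swap array, and that animal's ratios agreed least between its arrays, with a correlation across probes of 0.0464, against 0.890 in the highest animal, day 7 replicate 1. Arrays were scanned in 5 batches by the scan date in the file headers, and 1 batch held both days, with day 21 replicate 1 and day 7 replicates 4 and 5. Of 8 neuronal marker genes (Rbfox3, Map2, Tubb3, Snap25, Syt1, Nefl, Nefm and Stmn2), all 8 were well above background in both pools of every animal, except in the sprouting pool of day 21 replicate 4, where 5 were. Glial markers were detected too, with at least 7 of 8 astrocyte genes in every day 21 non-sprouting pool and between 3 and 8 in the day 21 sprouting pools. No spot of the 7 genes was saturated.

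Neto2 gave a lower signal in sprouting than in non-sprouting neurons at day 21 in each of the 5 animals. The log2 ratios of replicates 1 to 5 were -0.32, -0.32, -0.59, -0.40 and -0.83, with a mean of -0.49 ± 0.22 (SD, n = 5), so that the sprouting signal was on average 0.712 times the non-sprouting one. All 5 animals lay below 0, as they did for 3.62% of probes. On the forward arrays the ratios were -0.37, -0.31, -0.60, -0.36 and -1.02, and on the dye-swap arrays -0.28, -0.32, -0.58, -0.44 and -0.63. On the dye-swap array of replicate 4 the sprouting signal was not well above background. Every one of the 10 arrays was thus below 0, which held for 0.312% of probes, and the exchange of dyes moved an animal by at most the gap seen in replicate 5. Because these ratios led to the choice of the family, neither share is read as evidence. The authors' deposited table, with a normalization not given in the sources used here, averaged to a ratio of -0.48 for the same probe, and the ratio without replicate 5 was -0.41.

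At day 7 Neto2 was even between the pools in the 4 animals that had a value. Their log2 ratios were -0.03, -0.07, 0.07 and 0.09 in replicates 1, 3, 4 and 5, a mean of 0.013 ± 0.078 (SD, n = 4). Of these animals, 2 lay below 0 and 2 above. The 95% interval of the limma fit ran from -0.17 to 0.19 (adjusted p = 0.986). The fifth animal, replicate 2, had no value from both orientations: the forward spot was marked as an outlier by Feature Extraction, with a ratio of 3.81 and a non-sprouting signal not well above background, and the dye-swap array alone read 0.97. With that marked spot kept the day 7 mean was 0.49 (adjusted p = 0.854), and with the dye-swap array standing for the animal it was 0.20 (adjusted p = 0.848). Centring each array on its median in place of loess gave -0.19 (adjusted p = 0.492).

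**Figure D1:**
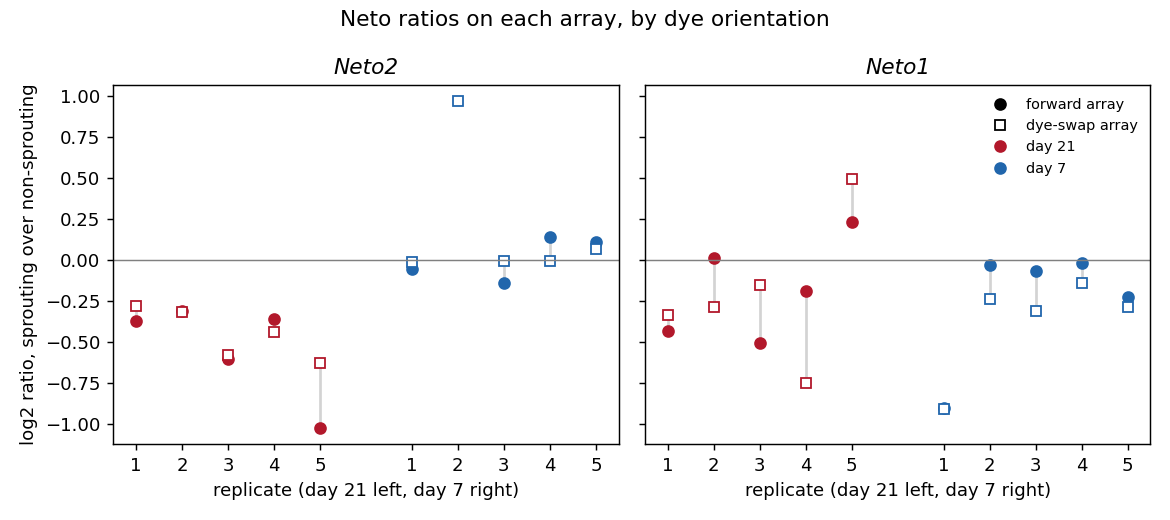
Log2 ratio of sprouting over non-sprouting signal (vertical axis) on each array for Neto2 (left) and Neto1 (right), with filled circles for forward and open squares for dye-swap arrays and grey lines joining the arrays of 1 animal. The 10 Neto2 values at day 21 (red) lie below 0, the day 7 values (blue) lie near 0 apart from 0.97 on the dye-swap array of replicate 2, and the 10 Neto1 values at day 7 lie below 0.

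The Neto2 ratio was lower at day 21 than at day 7 by 0.50 (difference -0.50 ± 0.11, SE) on the log2 scale. The 5 animals of day 21 lay between -0.83 and -0.32 and the 4 of day 7 between -0.07 and 0.09, and the groups did not overlap. The day 21 animals lay entirely below the day 7 animals for 0.655% of probes. Because the day 21 ratios led to the choice of the family, this share is not read as evidence. Within the scan batch that held both days, the single day 21 animal read -0.32 and the 2 day 7 animals averaged 0.078. With the batch as a fixed block the difference was -0.40, which rests on those same animals, since no other batch held both days. The difference was -0.98 with the marked spot kept and -0.69 with the dye-swap array standing for replicate 2. It was below 0 in all 28 settings tried, several of which cannot change it.

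The signal of the Neto2 probe in each pool is on a log2 scale, after normalization between arrays, and is not set against other probes. At day 21 the sprouting pools of replicates 1 to 5 read 8.46, 8.81, 8.71, 8.999 and 9.37, and the non-sprouting pools read 8.79, 9.12, 9.30, 9.40 and 10.19. At day 7 the sprouting pools of replicates 1, 3, 4 and 5 read 9.72, 8.75, 8.37 and 8.45, and the non-sprouting pools read 9.75, 8.82, 8.31 and 8.36. The means were 8.87 ± 0.34 in sprouting and 9.36 ± 0.52 in non-sprouting neurons at day 21 (SD, n = 5), and 8.82 ± 0.62 in sprouting and 8.81 ± 0.67 in non-sprouting neurons at day 7 (SD, n = 4). Non-sprouting neurons at day 21 were thus the highest, and the other groups lay close together. No neighbours in this order differed beyond the spread of the animals, although within each day 21 animal the sprouting pool was the lower one. The difference of day 21 minus day 7 was 0.044 in sprouting neurons and 0.55 in non-sprouting neurons, and across all probes the 5th to the 95th percentile of such differences ran from -0.56 to 0.53 in sprouting pools and from -0.57 to 0.57 in non-sprouting pools, so both Neto2 values lay inside the spread of probes. Single animals moved both differences. Without day 7 replicate 1, the brightest of its day, they were 0.34 in sprouting and 0.86 in non-sprouting neurons, and without day 21 replicate 5 they were -0.08 and 0.34. The sprouting difference was also below 0 without day 7 replicate 4 (-0.11) or replicate 5 (-0.08). Within the shared scan batch the differences were 0.048 in sprouting and 0.45 in non-sprouting neurons. In non-sprouting pools the animals of each day spread over more than 1 log2 unit.

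**Figure D2:**
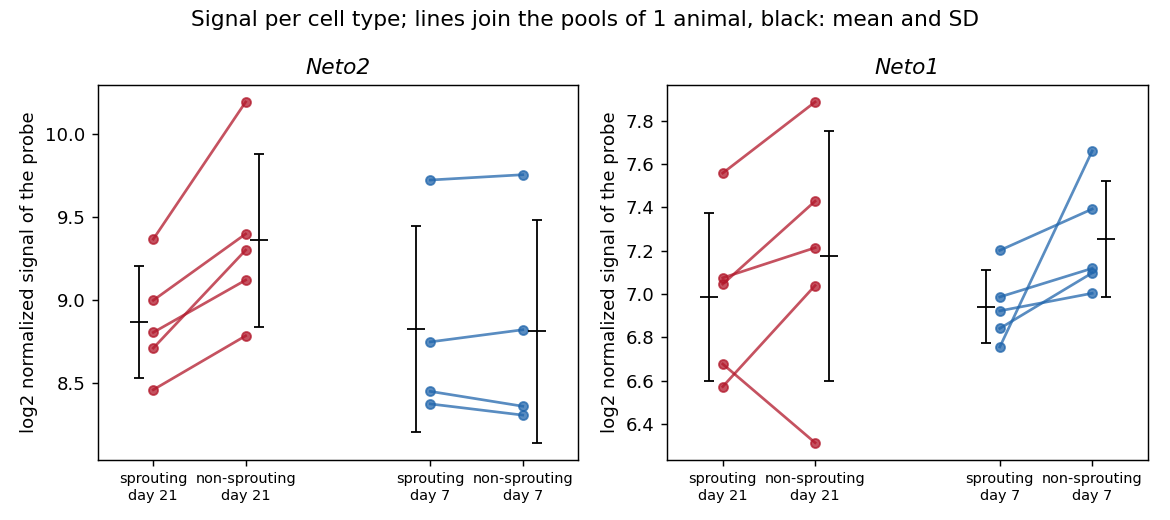
Log2 normalized signal (vertical axis) of the Neto2 and Neto1 probes in sprouting and non-sprouting pools at day 21 (red) and day 7 (blue), with lines joining the pools of 1 animal and black bars for mean and SD. Each Neto2 line at day 21 climbs toward the non-sprouting pool, and the ranges of the 2 days overlap.

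Marker genes were set beside the Neto2 ratio at day 21. For them the median ratio over the 8 neuronal markers was -0.15, with 6 of 8 below 0, and per animal it was -0.15, -0.13, 0.06, -0.12 and -0.51 in replicates 1 to 5. Replicate 5 was the lowest animal for Neto2 and for this median, but its summed neuronal marker signal, in log2, was 15.45 in the sprouting and 15.02 in the non-sprouting pool. Replicate 3, second lowest for Neto2, was above 0 for the median. Over the 5 animals the summed signal ranged from 15.37 to 15.59 in sprouting and from 15.02 to 15.93 in non-sprouting pools at day 21. The lowest neuronal marker was Syt1 at -0.45 ± 0.92 (SD), below 0 in 4 animals. Nefm at -0.42 ± 0.37 and Nefl at -0.36 ± 0.42 followed, below 0 in 5 of 5 animals each. The 2 above 0 were Snap25 at 0.12 ± 1.03, below 0 in 4 animals, and Stmn2 at 0.053 ± 0.18. Of 4 markers of glutamatergic neurons 2 lay below 0 (median -0.013). All 8 of 8 astrocyte markers had a ratio above 0 at day 21, with animal medians of 0.063 to 0.17 and log2 summed signals of 14.46 to 14.58 in sprouting and 14.24 to 14.53 in non-sprouting pools. Of 7 endothelial markers 5 lay below 0 (median -0.04), including Vwf at -0.29 ± 0.16 (SD), below 0 in 5 of 5 animals, and Kdr at -0.27 ± 0.15, below 0 in 4 of 5. The 2 above 0 were Tek at 0.12 ± 0.27 and Slc2a1 at 0.045 ± 0.24. The log2 summed signals of the endothelial markers were 10.30 to 11.41 in sprouting and 10.43 to 11.60 in non-sprouting pools. Of 10 markers of microglia and macrophages 7 lay below 0 (median -0.03), with the complement genes C1qa at -0.36 ± 0.25 and C1qb at -0.22 ± 0.18 below 0 in 5 of 5 animals each. The 3 above 0 were Lyz2 at 0.11 ± 0.26, Aif1 at 0.016 ± 0.13 and Cd68 at 0.0077 ± 0.11. The log2 summed signals of the microglia and macrophage markers were 12.42 to 12.93 in sprouting and 12.49 to 13.00 in non-sprouting pools. Of 8 markers of deep cortical layers 6 lay below 0 (median -0.058), and of 7 markers of upper layers 4 did (median -0.058). The lowest deep-layer marker was Bcl11b at -0.44 ± 0.42, below 0 in 4 animals. The 2 deep-layer markers above 0 were Etv1 at 0.18 ± 0.39 and Tle4 at 0.059 ± 0.092. Of 10 markers of GABAergic interneurons 5 lay below 0 (median 0.022), and of 10 oligodendrocyte markers 3 did (median 0.029). The part of these markers in the Neto2 ratio was not tested.

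Neto1 was the gene of the family with the lowest ratio at day 7. The log2 ratios of replicates 1 to 5 were -0.91, -0.13, -0.19, -0.08 and -0.26, a mean of -0.31 ± 0.34 (SD, n = 5). All 5 animals lay below 0, as for 5.88% of probes, and all 10 arrays did, as for 1.14% of probes. The 95% interval of the limma fit ran from -0.61 to -0.01, with an unadjusted p of 0.0417, and the adjusted p was 0.818, so the difference did not pass the test. Replicate 1 stood apart from the other animals, and without it the mean was -0.17 (adjusted p = 0.999). That animal also had the highest day 7 ratios for the marker lists of blood cells, microglia and macrophages, and endothelium. For astrocytes and oligodendrocytes it did not, with medians of -0.10 and -0.081. Its median over 6 blood cell markers was 0.59, against 0.026 to 0.076 in the other animals, and it was 0.25 over 10 markers of microglia and macrophages and 0.29 over 7 endothelial markers. The log2 summed signal of the microglia and macrophage markers was 15.44 in its sprouting pool and 14.58 in its non-sprouting pool, against 12.99 to 13.33 and 12.77 to 13.57 in the other animals. The part of these markers in the Neto1 value was not tested.

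At day 21 Neto1 was lower in sprouting neurons in 4 of 5 animals. The log2 ratios were -0.38, -0.14, -0.33, -0.47 and 0.36 in replicates 1 to 5, a mean of -0.19 ± 0.33 (SD, n = 5). On the dye-swap arrays of replicates 2 and 4, which read -0.29 and -0.75, the sprouting signal was not well above background. Replicate 5, the animal with the lowest Neto2 ratio, was the 1 animal above 0, and both of its arrays were, at 0.23 and 0.49. Without replicate 5 the mean was -0.33, and without replicate 4 it was -0.12. The difference of day 21 minus day 7 was 0.12 ± 0.19 (SE), within the spread of the animals. It was -0.02 without day 21 replicate 5, -0.03 without day 7 replicate 1, 0.19 without day 21 replicate 4 and -0.21 with scan batch as a fixed block. The last value rests only on the animals of the scan batch that held both days. In sprouting pools the probe averaged 6.99 ± 0.39 at day 21 and 6.94 ± 0.17 at day 7, and in non-sprouting pools 7.18 ± 0.58 at day 21 and 7.25 ± 0.27 at day 7 (SD, n = 5 each). The order was thus non-sprouting day 7, non-sprouting day 21, sprouting day 21 and sprouting day 7, and no neighbours differed beyond their spread.

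The subunits that form channels on their own showed smaller ratios. Grik1 had day 21 ratios of -0.07, -0.03, -0.04, -0.61 and 0.09 in replicates 1 to 5, a mean of -0.13 ± 0.28 (SD, n = 5) that rested on replicate 4, since it was -0.01 without that animal. The forward array of replicate 4 read -0.13. Its dye-swap array read -1.10, with the sprouting signal not well above background. With only the forward array used for replicate 4, the day 21 mean was -0.036. The Grik1 day 7 mean was -0.085 ± 0.16 (adjusted p = 0.908, limma). Grik2, the subunit most studied at hippocampal mossy fibre synapses, averaged -0.034 ± 0.10 at day 21 and -0.088 ± 0.11 at day 7 (adjusted p = 0.841, limma), with 4 of 5 animals below 0 at each day. Grik3 varied little between animals, at 0.027 ± 0.055 at day 21 and -0.025 ± 0.056 at day 7 (adjusted p = 0.932, limma). For Grik3 the sign changed with the scaling, since median centring gave 0.016 at day 7.

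The high-affinity subunits also had small ratios. Grik4 averaged -0.053 ± 0.21 at day 21 and -0.11 ± 0.15 at day 7 (SD, n = 5 each, adjusted p = 0.850, limma), and its day 7 ratio was 0.013 on forward arrays and -0.23 on dye-swap arrays. Grik5 averaged -0.031 ± 0.053 at day 21 (n = 5) and -0.042 ± 0.035 at day 7 (n = 4, adjusted p = 0.881, limma). Grik5 lacked day 7 replicate 2 for the same reason as Neto2, an outlier mark on the forward spot. With that spot kept its day 7 mean was 0.053. The 95% intervals of the day 7 ratio ran from -0.28 to 0.06 for Grik4 and from -0.12 to 0.04 for Grik5.

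**Figure D3:**
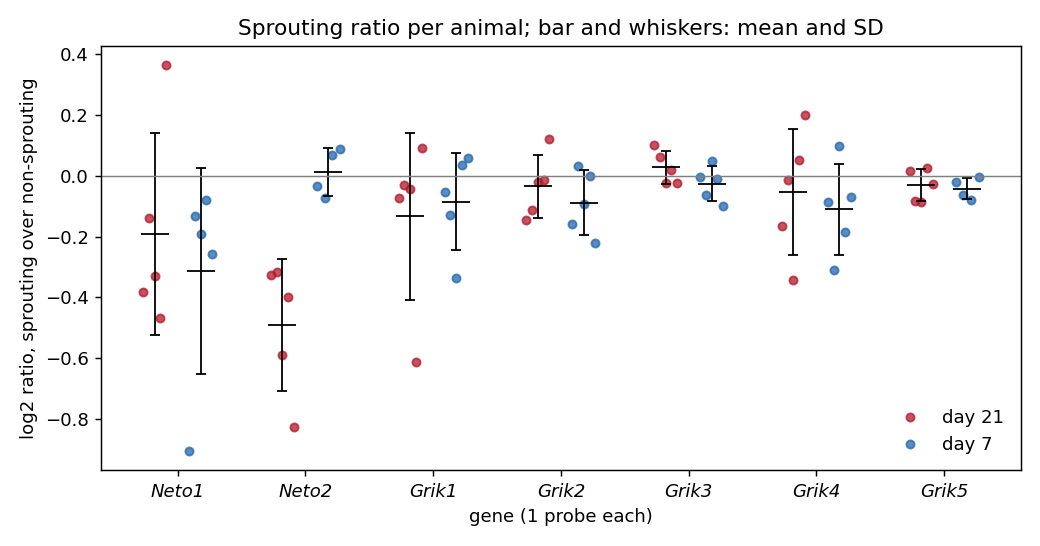
Log2 ratio of sprouting over non-sprouting signal (vertical axis) per animal for each of the 7 genes, with day 21 in red left of day 7 in blue, and black bars and whiskers for mean and SD. The 5 Neto2 points at day 21 lie between -0.83 and -0.32, apart from the 4 at day 7, whereas for the other 6 genes the days overlap.

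Across the family, 0 of 7 genes passed the limma test at day 7 after adjustment over all probes, as did 0% of the 34224 probes tested. At an unadjusted p under 0.05, Neto1 was the 1 member of 7, against 6.05% of probes in either direction and 2.71% lower. At each day 6 of 7 mean ratios lay below 0, against 50.9% of probes at day 21 and 51.2% at day 7. With median centring 4 of 7 did at day 21 and 6 of 7 at day 7, where Neto2 lay below 0 and Grik3 above. On forward arrays alone 6 of 7 did at day 21 and 4 of 7 at day 7. With no background correction 7 of 7 did at day 21 and 6 of 7 at day 7. The day 21 counts include Neto2. The family median was -0.053 at day 21, which includes Neto2, and -0.085 at day 7, and the medians of all probes were -0.0015 at day 21 and -0.0019 at day 7. The 5th to the 95th percentile of all probes ran from -0.15 to 0.15 at day 21 and from -0.15 to 0.18 at day 7. Neto2 and Neto1 were the members below that range at day 21, and Neto1 was the one at day 7.

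Signals overlapped between the days for 7 of 7 genes in both pools. Over all probes, the day 21 animals lay entirely below the day 7 animals for 4.03% and entirely above for 1.24% in sprouting pools, and for 4.87% and 1.38% in non-sprouting pools. Among the 5 receptor subunits the differences of day 21 minus day 7 ran from -0.18 for Grik3 to 0.21 for Grik5 in sprouting neurons, and from -0.23 for Grik3 to 0.20 for Grik5 in non-sprouting neurons. The Grik5 values rested on day 21 replicate 4, whose pools read 8.62 and 8.59, and were 0.026 in sprouting and 0.030 in non-sprouting neurons without it. Leaving out any other animal gave 0.14 to 0.31 in sprouting and 0.13 to 0.31 in non-sprouting neurons. The day 7 side of these Grik5 values held 4 animals, without replicate 2. The dye-swap array of that animal alone read 9.26 in the sprouting and 9.27 in the non-sprouting pool. Both readings lay above every day 21 animal, so the sign of the Grik5 differences depends on leaving that animal out. Without day 7 replicate 5 the Grik3 values were -0.12 in sprouting and -0.15 in non-sprouting neurons. Grik1 stood at 7.40 ± 0.59 at day 21 and 7.39 ± 0.21 at day 7 in sprouting pools, and at 7.54 ± 0.55 at day 21 and 7.47 ± 0.16 at day 7 in non-sprouting pools. Within the shared scan batch the Grik5 differences turned negative, at -0.20 in sprouting and -0.26 in non-sprouting neurons.

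Genes around the receptors were set beside the family from 3 lists. Of 21 partners of kainate receptors (scaffolds, trafficking and signalling proteins), 19 were tested. At day 21, 6 lay below 0 and 13 above with a median of 0.014, and at day 7, 11 lay below and 8 above with a median of -0.008. None passed limma's adjusted test at day 7, and 2 of 19 had an unadjusted p under 0.05, both higher in sprouting neurons, against 6.05% of all probes in either direction and 3.34% higher. These were Slc12a5, which encodes KCC2 (0.17 ± 0.08, SD, adjusted p = 0.817), and Prkca, a protein kinase C (0.073 ± 0.049, adjusted p = 0.817). The lowest at day 21 were the PDZ scaffold Pick1 at -0.12 ± 0.24 and the cadherin Cdh2 at -0.10 ± 0.30, and the highest were the scaffold Cask at 0.15 ± 0.26 and the SNARE protein gene Snap25 at 0.12 ± 1.03. At day 7 the lowest were Klhl24 at -0.15 ± 0.19 and Cdh2 at -0.13 ± 0.15, and the highest was C1ql3, a secreted C1q-like protein, at 0.31 ± 0.32, followed by Slc12a5.

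Of 12 auxiliary subunits of AMPA receptors, 6 were tested, with 4 below 0 at each day and a median of -0.036 at both. The lowest at day 21 were the transmembrane regulatory protein gene Cacng2 at -0.058 ± 0.099 and the cornichon gene Cnih2 at -0.043 ± 0.10, and the highest were Cacng8 at 0.045 ± 0.055 and Cacng4 at 0.006 ± 0.072. At day 7 Cnih2 was the lowest at -0.12 ± 0.06 (unadjusted p = 0.0153, adjusted p = 0.788, limma), followed by Cacng2 at -0.073 ± 0.094, and Cacng4 and Cacng8 were the highest at 0.077 ± 0.064 and 0.039 ± 0.058. Cnih2 was the 1 gene of 6 at an unadjusted p under 0.05, against 6.05% of all probes in either direction and 2.71% lower. None passed the adjusted test at day 7.

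All 13 subunit genes of the other ionotropic glutamate receptors were tested, with 8 below 0 at day 21 (median -0.070) and 5 below 0 at day 7 (median 0.028). At day 21 the AMPA subunit Gria3 at -0.26 ± 0.34 and the NMDA subunit Grin2a at -0.21 ± 0.28 were lowest, and Gria2 at 0.38 ± 1.13 and Grin2c at 0.13 ± 0.41 were highest, each with a spread larger than its mean. At day 7 Grin1 was lowest at -0.15 ± 0.35. Grin2b was the highest at 0.15 ± 0.13 (unadjusted p = 0.0133, adjusted p = 0.788, limma), followed by Gria3 at 0.075 ± 0.18. Grin2b was the 1 gene of 13 at an unadjusted p under 0.05, against 6.05% of all probes in either direction and 3.34% higher. None passed the adjusted test at day 7.

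**Figure D4:**
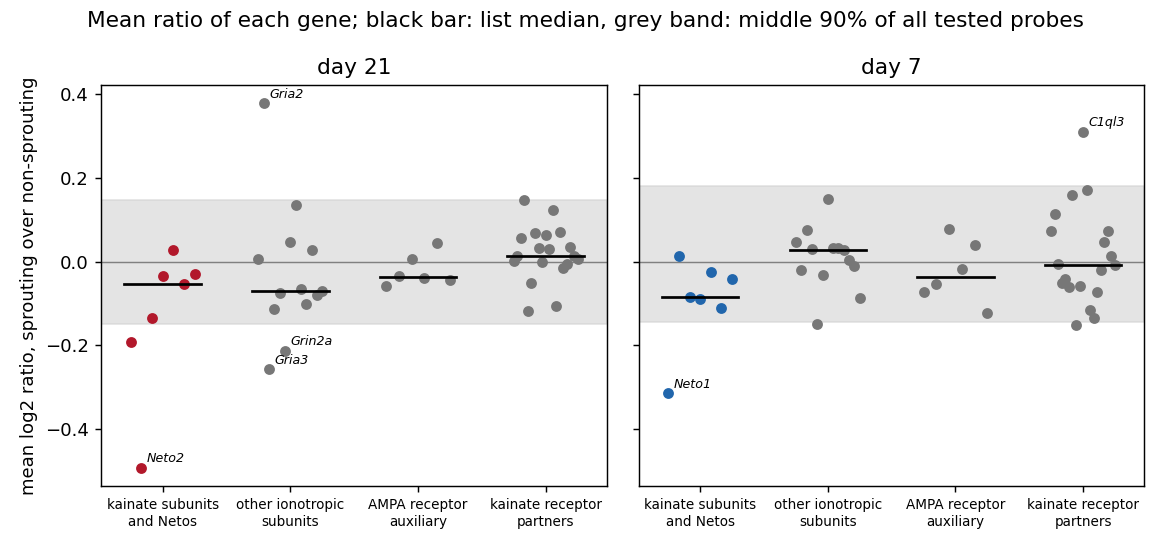
Mean log2 ratio of sprouting over non-sprouting signal (vertical axis) of each gene at day 21 (left panel) and day 7 (right panel), for the 7 genes in colour and for 3 lists in grey, with black bars for list medians and a grey band from the 5th to the 95th percentile of all tested probes. Neto2 is the lowest point at day 21 at -0.49 and Neto1 the lowest at day 7 at -0.31.

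The genes whose ratios ran most like those of Neto2 were sought over the 9 animals with a Neto2 value, among 11769 named genes. The highest Pearson correlations were 0.942 for Eif2ak1, a kinase of the translation initiation factor eIF2, 0.913 for Ppial4g, 0.911 for Sorcs3, a sortilin-family receptor, 0.901 for Rpl17 and 0.897 for Rps6, both ribosomal proteins. The probes of Ppial4g, Rpl17 and Rps6 were saturated on 18, 19 and 10 of the 20 arrays. All 5 had lower mean ratios at day 21 than at day 7, for example -0.15 at day 21 and 0.11 at day 7 for Eif2ak1, and most scan batches held animals of 1 day. Within the family, Grik2 ran most opposite to Neto2 with a correlation of -0.70, Neto1 had -0.45, Grik4 -0.21, Grik3 -0.14, Grik5 -0.02 and Grik1 0.009. These correlations over 9 animals in 2 groups of days are a description.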

How the data were processed

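Images of the 20 Agilent 2-colour arrays had been quantified with Feature Extraction (per the submitters' processing notes), whose version was 9.1.3.1 according to the file headers. The deposited spot and background intensity values are linear, per the file headers, with 0 or 1 flags for detection, saturation and outliers. The deposited log10 ratios carry Feature Extraction's own correction, per the file headers. The log2 ratios in the authors' deposited table, of red over green, have a normalization not given in the sources used here, and 20 further columns were not used. The genome build was likewise not given in the sources used here.

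Background was corrected by normexp (offset 50) and arrays by loess, with control spots at weight 0, in limma 3.58.1 under R 4.3.3 and the data.table package (version 1.17.8). Outlier-marked spots were set to missing, and an animal needed both orientations. Signals per pool came from Aquantile. A probe was tested when at least 3 animals of a day had it well above background on both of their arrays for a cell type. One fit over 10 animals gave the ratios, with Benjamini-Hochberg adjustment at 0.05 over all probes, and was tested on simulated data. The number of arrays limits the precision. Symbols came from the array or from RefSeq.

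The genes and lists were chosen with earlier results of these data known. All 7 genes are named, with the 2 highest and 2 lowest of each list per day (1 of these is not reported here), and the 5 genes most like Neto2 over 9 animals, since day 7 replicate 2 had no Neto2 value. List genes with an unadjusted p under 0.05 at day 7 were named after their values were seen. So were the markers Vwf, Kdr, C1qa, C1qb, Syt1, Nefm, Nefl and Bcl11b. The endothelial, microglia and macrophage, neuronal and deep-layer markers above 0 at day 21 were named likewise. Alternatives covered background correction, scaling, filters, dye orientation, scan batch, a replicate block and leaving out each animal.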

Additional observations from a re-analysis of the deposited data

Results flagged for a closer look

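A single animal far from the others of its group was found in 4 of 42 groups of values checked, by the gap of the highest or lowest animal over the range of the group. Chance gives such a gap in about 1 in 20 groups. The Neto1 ratio of day 7 replicate 1 was -0.91, with the other animals between -0.26 and -0.08. The Grik1 ratio of day 21 replicate 4 was -0.61, with the other animals between -0.07 and 0.09, and this is the animal whose dye-swap array was dimmest. That array read -1.10, with the sprouting signal not well above background, and the animal's forward array read -0.13. The Grik3 signal in the sprouting pool of day 7 replicate 5 was 7.19, with the others between 6.87 and 6.90. It came from the forward array, which read 7.66 in the sprouting and 7.74 in the non-sprouting pool. The dye-swap array of the same animal read 6.72 and 6.84. The Grik5 signal in the non-sprouting pool of day 7 replicate 4 was 7.84, with the others between 7.63 and 7.66.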

How the results depend on the processing

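The Neto2 ratio at day 21 was below 0 in all 22 settings tried (-0.72 to -0.32) and the day difference in all 28 (-0.98 to -0.40). Several settings, such as the filters on dim probes and 1 probe per gene, cannot change a gene's own ratio. Counts of settings, here and below, thus repeat the main value. Both Neto2 counts also hold the ratio that chose the family and are not read as evidence. The ratio was -0.72 with Feature Extraction's own ratios. The difference was -0.75 with those ratios, -0.98 with outlier-marked spots kept and -0.69 with 1 orientation used where the other was missing, a setting chosen after seeing the data like the random scan batch block and the use of the forward array alone for day 21 replicate 4. The Neto1 ratio at day 7 was below 0 in all 22 settings (-0.52 to -0.17, adjusted p 0.400 to 0.999). At day 7, median centring gave -0.19 for Neto2 and 0.016 for Grik3, forward arrays alone gave 0.013 for Grik4 and 0.025 for Grik5, keeping marked spots gave 0.053 for Grik5 and the shared scan batch gave 0.047 for Grik1, each with the sign turned. At day 21 signs turned for Grik2 (0.032) and Grik4 (0.035) with median centring, Grik4 with Feature Extraction's ratios (0.013) or without replicate 3 (0.019), Grik3 (-0.067) and Grik5 (0.049) on forward arrays, Grik2 on dye-swap arrays (0.0069), Grik5 in the shared scan batch (0.016), and Grik3 with no background correction (-0.0075) or replicate 4 from its forward array alone (-0.0082). The cause was not tested. Leaving out 1 animal moved Neto2 at day 7 between -0.013 and 0.042, turning the sign without replicate 4 or 5, Neto2 at day 21 between -0.54 and -0.41, and its difference between -0.55 and -0.42. With a replicate block the day difference was -0.55 for Neto2, which drops the unpaired number, and 0.12 for Neto1, and no call changed. Same-numbered animals of the days are separate cohorts and did not deviate together (correlations of -0.197 to 0.0437 over 5 pairs).

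No probe passed the adjusted test in the main setting at either day or for the difference, with 1627, 2070 and 1411 probes at an unadjusted p under 0.05 at day 21, at day 7 and for the difference. The adjusted count became 1 at day 21 with median centring and 1 at day 7 with no background correction. The 20 arrays were also entered singly, with the animal as a random block (correlation 0.501, shared by all probes) and a dye term. This gave 2 at day 21, 13 at day 7 and 1 for the difference. None of these counts included a gene of the family at day 7. The share of unadjusted calls that were lower was not stable. At day 21 it was 61.8% in the main setting, 70.8% with median centring, 51.5% with no background correction, 47.3% on forward arrays, 45.5% with arrays entered singly and 45.3% with Feature Extraction's ratios. At day 7 it was 44.7%, and 69.6% with median centring. For the difference it was 60%, against 49.9% with Feature Extraction's ratios, 48.9% on dye-swap arrays and 34.7% with scan batch as a fixed block. The stricter filter on dim probes left out Grik2. Precision is limited by 5 animals a day, by the dim green channel of some arrays and by 1 probe per gene.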
